A study of Mus musculus with 18 samples.

Results

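The genes described here are 10 transcripts that macrophages are known to make, or to make more of, under interleukin-4 (IL-4), together with the receptor chain that binds this cytokine. They are Retnla, Arg1, Mgl2, Clec10a, Ccl17, Ccl22, Ccl24, Pdcd1lg2, Cd209a and Il4ra. They were named by gene symbol, with no threshold on a measured value but with earlier results of these data known, and are 10 of the 24421 gene symbols listed in each count table. All 10 symbols were found in all 18 libraries.

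Macrophages of 3 kinds were sorted from the knee synovium, the membrane that lines the joint, of adult wild-type C57BL/6 mice of both sexes. LYVE1+CX3CR1+ cells were gated as negative for MHC class II, and the cells positive for class II were split by CD11c into MHCII+CD11c- and MHCII+CD11c+ cells. Each subset was taken from untreated mice and from mice killed 8 h after an intravenous dose of immune complexes (IC) made of ovalbumin and rabbit antibody to it, which gave 6 groups of 3 libraries. Each library came from the pooled cells of 3 mice, so a p-value measured only the spread between pools. All groups shared the same wild-type background, no transgene or deletion was carried, and the gates could hold dendritic cells as well as macrophages.

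IL-4 binds the IL-4 receptor alpha chain (Il4ra), which pairs with the common gamma chain (Il2rg) on blood cells or with IL-13 receptor alpha 1 (Il13ra1). Janus kinases bound to these chains phosphorylate STAT6, which enters the nucleus and binds a palindromic motif near its target genes. In mouse macrophages this program is known for the secreted protein RELM alpha (Retnla), the enzyme arginase 1 (Arg1), the galactose-binding lectins CD301a (Clec10a) and CD301b (Mgl2), the chemokines CCL17, CCL22 and CCL24, and the checkpoint ligand PD-L2 (Pdcd1lg2). Cd209a encodes a mannose-binding lectin of macrophages and dendritic cells.

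Total counts per library ran from 245903 to 2172358, with a median of 1526180, and the smallest library, the second MHCII+CD11c- library after IC, gave 3.77 CPM for a single count. CPM, counts scaled to a common library size, were further scaled by trimmed means (TMM), a level is called at the floor where a library holds no more than 3 counts, and floors and counting errors cover counting only. Macrophage markers (6 of 6 detected in each group) summed to 7710 to 8345 CPM in untreated LYVE1+CX3CR1+ libraries, 5589 to 6187 CPM in MHCII+CD11c- libraries and 3601 to 3973 CPM in MHCII+CD11c+ libraries. The class II gene H2-Aa lay at 2.69 to 3.37 CPM in untreated LYVE1+CX3CR1+ libraries, against 2828 to 3067 CPM in MHCII+CD11c- and 3811 to 4389 CPM in MHCII+CD11c+ libraries. Itgax, which encodes CD11c, was at 2.33 to 13.3 CPM in untreated MHCII+CD11c- libraries and at 239.95 to 304 CPM in MHCII+CD11c+ libraries. In untreated libraries H2-Aa and Itgax thus followed the gates, while Itgax rose in MHCII+CD11c- cells after IC, as given below. Levels of Lyve1 and Cx3cr1 are not given here. Fibroblast markers (7 genes) summed to 30.1 to 645 CPM in untreated LYVE1+CX3CR1+ libraries, with a median of 30.2 CPM. Dendritic cell markers (9 genes) summed to 72.1 to 115 CPM, 247 to 308 CPM and 402 to 483 CPM in the 3 untreated subsets in the same order, with Xcr1 at no more than 5 counts and Clec9a at no more than 12 counts in any library. In bulk libraries, fewer cells of a type and less RNA per cell cannot be told apart.

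Together the 10 genes took 0.0493% to 0.0901% of all counts in the untreated LYVE1+CX3CR1+ libraries, 0.382% to 0.555% in the MHCII+CD11c- libraries and 0.491% to 0.845% in the MHCII+CD11c+ libraries. The untreated MHCII+ libraries did not overlap the LYVE1+CX3CR1+ libraries, whereas both MHCII+ subsets overlapped each other. Retnla made up most of these counts in the untreated MHCII+ libraries (0.209% to 0.561% of all counts) but not in the LYVE1+CX3CR1+ libraries. After IC the shares were 0.0436% to 0.0621%, 0.213% to 0.364% and 0.363% to 0.492% in the same order.

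Of the 10 genes, 9 had enough counts to be tested across the libraries. Pdcd1lg2 did not, and Ccl17 and Ccl22 had enough only through the MHCII+CD11c+ libraries, so those members had to differ in order to be tested. Cd209a, at the floor in LYVE1+CX3CR1+ libraries, had enough only through the MHCII+ libraries and had to differ from LYVE1+CX3CR1+ cells. Comparisons below come from edgeR's quasi-likelihood test over 10550 genes, with adjusted p from the Benjamini-Hochberg method over all of them and 0.05 as the threshold. Log2 fold changes are given with their standard errors (SE), and each group had n = 3 libraries. In untreated mice, 5 of 9 tested members were higher in MHCII+CD11c- than in LYVE1+CX3CR1+ cells, where 11.4% of all genes were called and 7.12% were called higher. In MHCII+CD11c+ against LYVE1+CX3CR1+ cells 7 of 9 were higher, where 21.8% of all genes were called and 12.4% were called higher. In MHCII+CD11c+ against MHCII+CD11c- cells 3 of 9 were higher, where 3.49% of all genes were called and 1.89% were called higher. Ccl17 and Ccl22 are in both counts for MHCII+CD11c+ cells, where they had to differ, and lend them no support. Cd209a is likewise in both counts against LYVE1+CX3CR1+ cells and lends them none. Beside Ccl17 and Ccl22, Cd209a was the member called between the MHCII+ subsets. No member was called lower by edgeR or DESeq2 in these 3 comparisons, and Ccl24 was lower at an unadjusted p under 0.05 in the last. The median log2 difference of the members with a fold was 4.42 over 7 members, 5.03 over 9 and 0.51 over 9 in the same order, with members against an undetected group set at their lower bound, while the median over all genes was 0.02, 0.02 and -0.01. The medians for MHCII+CD11c+ cells include Ccl17 and Ccl22, and those against LYVE1+CX3CR1+ cells include Cd209a, which had to differ there.

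**Figure D1:**
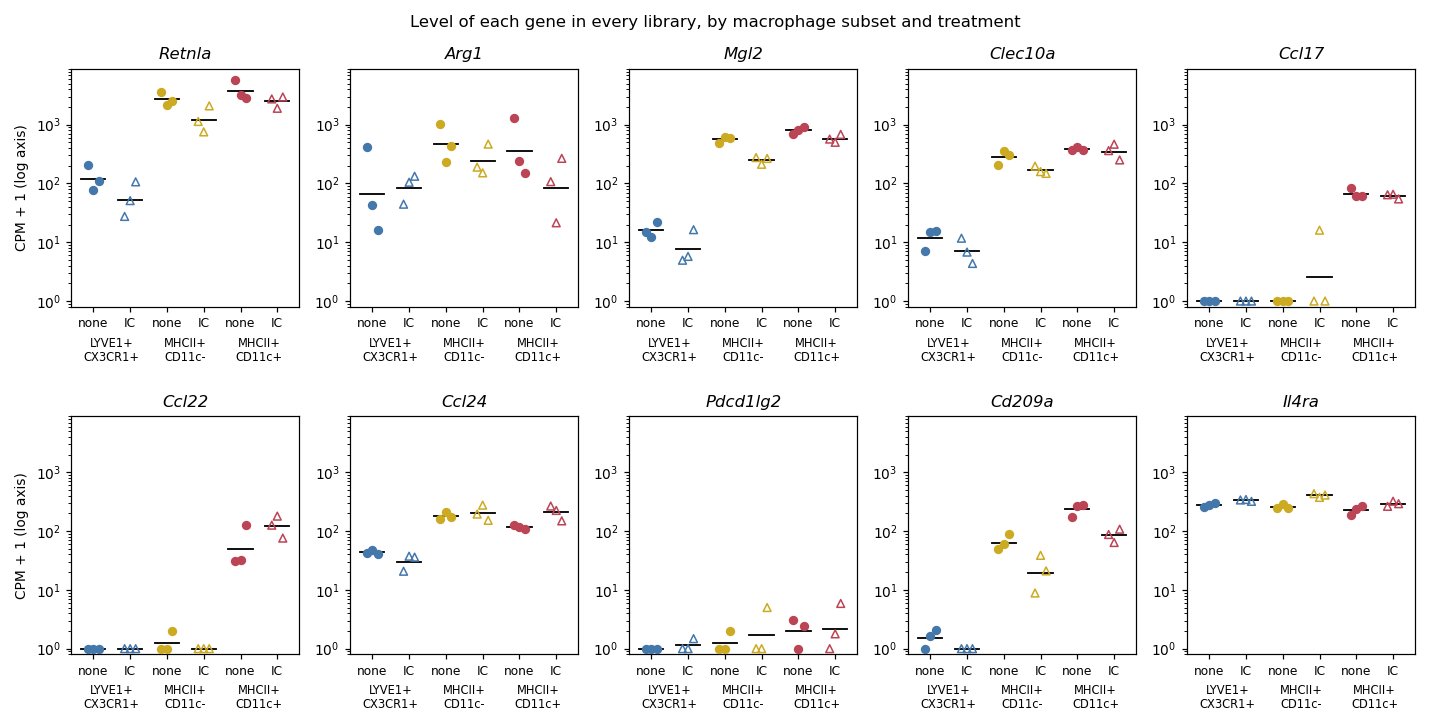
Level of each of the 10 genes in every library (TMM-scaled CPM plus 1, log axis) by subset, with filled circles for untreated mice, open triangles for 8 h after IC and bars for the geometric mean of CPM plus 1 in each group of 3 libraries. Ccl17 and Ccl22 lie far above 0 only in the MHCII+CD11c+ libraries, Il4ra stays between 187 and 431 CPM in every library, and Arg1 is spread widely within each subset.

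Retnla (chr16:48842609-48844461, RefSeq on GRCm38.p6) encodes RELM alpha, a cysteine-rich protein secreted by alternatively activated macrophages. The 250 bases before its start hold 1 match to the STAT6 motif TTCNNNNGAA, a form that 1923 of 32851 RefSeq promoter windows (5.85%) share. A match is only a match of letters, and this sequence is shown because Retnla was the most abundant member by far. The motif is in capitals, 145 bases before the start, in chr16:48842359-48842550 on the plus strand, which stops where the first annotated exon of GENCODE begins.
Retnla: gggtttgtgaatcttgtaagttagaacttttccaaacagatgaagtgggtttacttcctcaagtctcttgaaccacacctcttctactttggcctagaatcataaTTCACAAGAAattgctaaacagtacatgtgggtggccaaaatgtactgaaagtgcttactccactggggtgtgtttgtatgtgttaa

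Retnla stood at 203, 76.5 and 107 CPM in the 3 untreated LYVE1+CX3CR1+ libraries. It stood at 3525, 2144 and 2573 CPM in the MHCII+CD11c- libraries and at 5838, 3229 and 2879 CPM in the MHCII+CD11c+ libraries. The lowest MHCII+ library thus exceeded the highest LYVE1+CX3CR1+ library, and the MHCII+ subsets overlapped each other. The log2 difference from LYVE1+CX3CR1+ cells was 4.42 (SE 0.43, adjusted p = 4.78e-08) in MHCII+CD11c- cells and 4.95 (SE 0.44, adjusted p = 3.53e-09) in MHCII+CD11c+ cells. Leaving out any 1 of the 6 libraries kept both calls. The 2 MHCII+ subsets had a log2 difference of 0.54 (SE 0.37, adjusted p = 0.519), with a 95% interval from -0.22 to 1.29.

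Per kilobase of exon, Retnla reached 6648 ± 2700 CPM (SD, n = 3) in untreated MHCII+CD11c+ libraries, 4587 ± 1180 CPM in MHCII+CD11c- libraries and 215 ± 110 CPM in LYVE1+CX3CR1+ libraries. On the length-corrected scale the next member of MHCII+CD11c+ cells was Mgl2 at 384 ± 53.2 CPM per kilobase. Arg1 (255 ± 289.7), Cd209a (151 ± 36.4), Clec10a (132 ± 10.5), Ccl17 (130.3 ± 25.3) and Ccl24 (90.1 ± 7.22) followed in CPM per kilobase. Arg1 could not be placed in this order, since its SD exceeded its mean, and Cd209a, Clec10a and Ccl17 lay within 1 SD of each other. Il4ra (38.3 ± 6.82), Ccl22 (26.6 ± 23.2) and Pdcd1lg2 (0.603 ± 0.548) were the lowest, with Il4ra and Ccl22 within their spread. The exon lengths came from GENCODE vM21 and may differ from those the counting used.

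Mgl2 (chr11:70130125-70137542) and Clec10a (chr11:70166623-70170836) encode the paired lectins CD301b and CD301a, which bind galactose and N-acetylgalactosamine. The genes are neighbours, 29080 bases apart, and are similar enough in sequence that reads could be split between them, so small differences between them are uncertain. Mgl2 stood at 14.2, 11.3 and 21.5 CPM in untreated LYVE1+CX3CR1+ libraries, at 489, 615 and 589 CPM in MHCII+CD11c- libraries and at 685, 819.8 and 906 CPM in MHCII+CD11c+ libraries. All 3 subsets were separate, in that order. Clec10a stood at 6.06, 13.8 and 14.5 CPM, at 206, 362 and 301 CPM and at 364, 418 and 368 CPM in the same 3 subsets. Its subsets were separate too, with only a narrow gap between the MHCII+ ones.

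Relative to LYVE1+CX3CR1+ cells, Mgl2 was higher by 5.15 log2 units in MHCII+CD11c- cells (SE 0.29, adjusted p = 1.56e-12) and by 5.66 in MHCII+CD11c+ cells (SE 0.29, adjusted p = 1.47e-13). Clec10a was higher by 4.62 (SE 0.31, adjusted p = 6.34e-11) and 5.03 log2 units (SE 0.31, adjusted p = 5.08e-12). These 4 calls were kept in all 6 fits without 1 library. Between the untreated MHCII+ subsets neither gene passed the test, with a log2 difference of 0.51 for Mgl2 (SE 0.22, adjusted p = 0.248) and 0.40 for Clec10a (SE 0.24, adjusted p = 0.445). The ratio of Mgl2 to Clec10a per kilobase was 2.61 to 3.41 in untreated MHCII+CD11c+ libraries and 2.35 to 3.29 in MHCII+CD11c- libraries, so the balance between these lectins overlapped between the subsets.

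Cd209a (chr8:3743395-3748984) encodes a C-type lectin of the DC-SIGN family and has several near copies on the same chromosome, so its counts carry the same uncertainty. It had 0, 1 and 2 counts in the untreated LYVE1+CX3CR1+ libraries, which is at the floor. Its level was 47.7, 59.9 and 86.8 CPM in MHCII+CD11c- libraries and 173, 269 and 277 CPM in MHCII+CD11c+ libraries. Of the members detected in both MHCII+ subsets, it was the only one called between them in untreated mice. It was 3.68-fold higher in MHCII+CD11c+ cells (log2 1.88, SE 0.29, adjusted p = 0.000479), a call kept in all 6 fits without 1 library. Against the floor of LYVE1+CX3CR1+ cells, taken as 3 counts per library, its MHCII+CD11c- level was at least 35.2-fold higher (adjusted p = 8.36e-09) and its MHCII+CD11c+ level at least 130-fold higher (adjusted p = 7.99e-12). Cd209a entered the test only through its MHCII+ counts, so these p-values against LYVE1+CX3CR1+ cells lend the differences no support.

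Of 7 tested dendritic cell markers 3 were higher in untreated MHCII+CD11c+ than in MHCII+CD11c- cells and none was called lower, where 3.49% of all genes were called. Those called were Flt3 (log2 2.74, adjusted p = 0.00732), Dpp4 (1.98, adjusted p = 0.0379) and Cd24a (1.46, adjusted p = 0.045). Zbtb46 (1.47, adjusted p = 0.238) and Kmo (1.02, adjusted p = 0.383) did not pass, nor did Ccr7 (-0.25, adjusted p = 0.806) and Irf8 (-0.70, adjusted p = 0.124), which was lower with no overlap. Xcr1 and Clec9a, which mark cross-presenting dendritic cells, stayed near 0. Their part in the Cd209a, Ccl17 and Ccl22 differences was not tested.

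Ccl17 and Ccl22 encode ligands of the chemokine receptor CCR4, which guides T helper 2 and regulatory T cells as well as some innate lymphocytes. Ccl22 (chr8:94745684-94751388) and Ccl17 (chr8:94809380-94812038) lie 57991 bases apart in the same orientation, and their upstream sequences are shown because both were detected in a single subset. Capitals mark the motif TTCNNNNGAA, 154 bases before the start of Ccl17, and TTCNNNGAA, the same arms with a shorter spacer, 99 bases before it. The second form occurs in 2306 of 32851 promoter windows (7.02%), and each form reads the same on both strands. The window of Ccl22 held neither. The Ccl17 stretch is chr8:94810203-94810452 and the Ccl22 stretch chr8:94745434-94745589, both on the plus strand of GRCm38.p6 and free of exons annotated by GENCODE, although the RefSeq record of Ccl17 begins further upstream.
Ccl17: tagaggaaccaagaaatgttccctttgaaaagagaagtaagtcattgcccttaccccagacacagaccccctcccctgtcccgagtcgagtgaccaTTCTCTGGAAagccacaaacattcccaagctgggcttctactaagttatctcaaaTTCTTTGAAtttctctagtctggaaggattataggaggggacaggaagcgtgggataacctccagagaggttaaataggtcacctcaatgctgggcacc
Ccl22: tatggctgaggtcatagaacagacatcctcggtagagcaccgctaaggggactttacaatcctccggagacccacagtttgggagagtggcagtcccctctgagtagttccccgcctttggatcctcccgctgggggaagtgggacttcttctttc

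RefSeq windows were found for 7 of the 10 members. Of the other windows, that of Pdcd1lg2 held TTCCTCAGAA 82 bases before its start, and those of Mgl2, Cd209a and Il4ra held neither form. The absence of these letters from so short a window says nothing about STAT6 itself.

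Ccl17 had 156, 90 and 124 counts in the untreated MHCII+CD11c+ libraries, or 82.0, 59.2 and 59.8 CPM. It had 0 counts in all 3 untreated MHCII+CD11c- and all 3 LYVE1+CX3CR1+ libraries, where 3 counts would have been 3.06 to 3.67 CPM and 1.62 to 2.02 CPM. It was therefore at least 19.7-fold higher in MHCII+CD11c+ than in MHCII+CD11c- cells (adjusted p = 3.84e-05) and exceeded by at least 36.4-fold its floor in LYVE1+CX3CR1+ cells (adjusted p = 2.26e-07).

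Ccl22 stood at 30.5, 30.9 and 124 CPM in the untreated MHCII+CD11c+ libraries, with the third library far above the other two. It had 0, 0 and 1 counts in MHCII+CD11c- and 0 counts in all LYVE1+CX3CR1+ libraries. It was at least 18.1-fold higher in MHCII+CD11c+ than in MHCII+CD11c- cells (adjusted p = 0.000255) and at least 33.6-fold higher than in LYVE1+CX3CR1+ cells (adjusted p = 1.26e-06). Without the third MHCII+CD11c+ library these bounds were 9.01-fold and 16.7-fold. The calls of both chemokines were kept in all 6 fits without 1 library, but both genes entered the test only through the MHCII+CD11c+ libraries. The receptor gene Ccr4 had no more than 1 count in any library.

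Ccl24 (chr5:135569935-135573123) encodes eotaxin-2, a chemokine for eosinophils that acts through CCR3. It stood at 41.1, 45.8 and 40.4 CPM in untreated LYVE1+CX3CR1+ libraries, at 160.5, 207 and 175 CPM in MHCII+CD11c- libraries and at 125, 118 and 107 CPM in MHCII+CD11c+ libraries. Unlike the other 2 chemokines it was detected in all 3 subsets, was highest in MHCII+CD11c- cells, and its subsets did not overlap. The log2 difference from LYVE1+CX3CR1+ cells was 2.09 in MHCII+CD11c- cells (SE 0.25, adjusted p = 1.39e-06) and 1.46 in MHCII+CD11c+ cells (SE 0.24, adjusted p = 5.27e-05), and both were kept in all 6 fits without 1 library. The MHCII+ subsets differed by -0.63 (SE 0.23, adjusted p = 0.144), which did not pass the test.

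Arg1 (chr10:24915207-24927470) encodes arginase 1, which turns arginine into ornithine and urea. It stood at 416, 41.4 and 15.1 CPM in untreated LYVE1+CX3CR1+ libraries, at 1025, 233 and 439 CPM in MHCII+CD11c- libraries and at 1311, 241 and 150.5 CPM in MHCII+CD11c+ libraries. In each subset the first library was the highest, and the subsets overlapped. The log2 difference from LYVE1+CX3CR1+ cells was 1.86 in MHCII+CD11c- cells (SE 0.85, adjusted p = 0.183) and 1.87 in MHCII+CD11c+ cells (SE 0.84, adjusted p = 0.127). Both values hung on the first untreated LYVE1+CX3CR1+ library, without which they were 4.34 (adjusted p = 0.00468) and 4.35 (adjusted p = 0.00166). With same-numbered libraries of a treatment taken as 1 pool of mice, edgeR called both, at 2.70 (adjusted p = 0.000269) and 2.21 (adjusted p = 0.000498). The labels do not say whether such libraries shared mice. For the MHCII+ subsets against each other the log2 difference was 0.00 (adjusted p = 1).

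Il4ra (chr7:125552271-125579474), the receptor chain shared by IL-4 and IL-13, was at similar levels in all subsets. It stood at 257, 277 and 295 CPM in untreated LYVE1+CX3CR1+ libraries, at 248, 291 and 244 CPM in MHCII+CD11c- libraries and at 187, 234 and 269 CPM in MHCII+CD11c+ libraries. All 3 subsets overlapped. Relative to LYVE1+CX3CR1+ cells, the log2 difference was -0.08 in MHCII+CD11c- cells, with a 95% interval from -0.40 to 0.24 (adjusted p = 0.816), and -0.26 in MHCII+CD11c+ cells (SE 0.15, adjusted p = 0.261). The MHCII+ subsets had a difference of -0.18 (adjusted p = 0.638).

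Pdcd1lg2 (chr19:29410919-29472927), which encodes the PD-1 ligand PD-L2, had 4, 0 and 3 counts in the untreated MHCII+CD11c+ libraries, 0, 0 and 1 in MHCII+CD11c- libraries and 0 in all LYVE1+CX3CR1+ libraries. After IC it had 0, 1 and 8 counts, 0, 0 and 4 counts and 0, 0 and 1 counts in the same order of subsets. These few counts did not allow a test, and a difference was not detectable at this depth. Its paralog Cd274, which encodes PD-L1, exceeded its floor in LYVE1+CX3CR1+ cells by at least 7.82-fold in MHCII+CD11c- (adjusted p = 0.00596) and 9.82-fold in MHCII+CD11c+ cells (adjusted p = 0.000641). At the floor in untreated LYVE1+CX3CR1+ cells, Cd274 had to be high in another group to be tested.

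**Figure D2:**
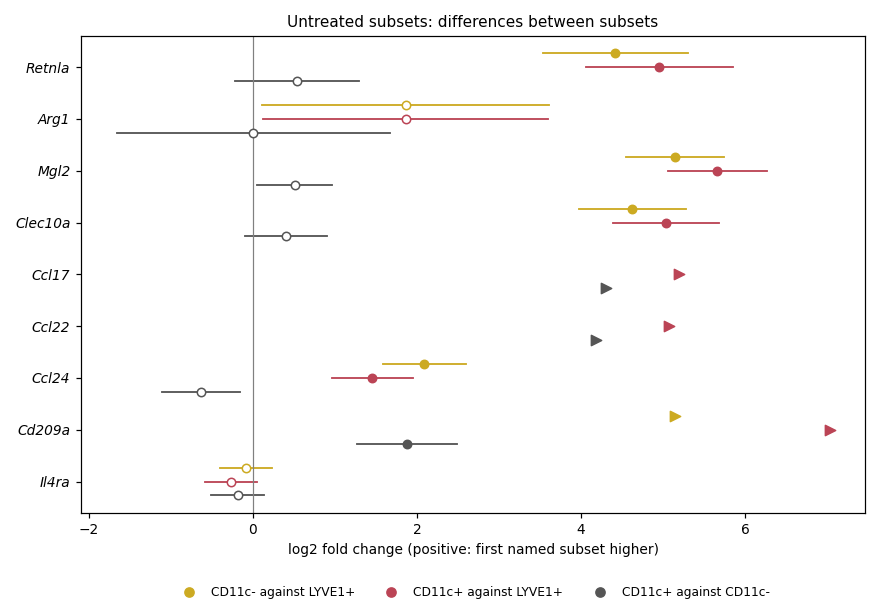
Differences between untreated subsets for the 9 tested members, as log2 fold changes (x axis) with 95% intervals from n = 3 libraries a group. Filled dots passed the threshold, open dots did not, and arrowheads mark lower bounds against a group at the floor of 3 counts; Retnla, Mgl2 and Clec10a differ from LYVE1+CX3CR1+ cells by 4.42 to 5.66, while Il4ra lies near 0.

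The response to IC was then read in each subset. In LYVE1+CX3CR1+ cells, 0 of 9 tested members were called by edgeR, where 0.464% of all genes were called. In MHCII+CD11c- cells 2 of 9 fell, where 1.06% of all genes were called. Of the same 9, 1 fell in MHCII+CD11c+ cells, where 0.673% of all genes were called. At an unadjusted p under 0.05, in either direction, stood 2 members (Retnla and Mgl2), 6 and 6 in the same order of subsets. Of 10550 genes, 919, 1544 and 1000 had such a p. DESeq2 called 0, 3 and 2 members, and 153, 276 and 152 genes in all. The median log2 change was -0.79 over 6 members, -0.90 over 8 and -0.15 over 9 in the same order, against -0.02, -0.01 and -0.01 over all genes.

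Mgl2 fell after IC in MHCII+CD11c- cells, where the 3 libraries stood at 275, 211 and 265 CPM, all below the untreated libraries. It was 2.24-fold lower (log2 -1.16, SE 0.24, adjusted p = 0.0128), and the adjusted p ran from 1.19e-06 to 0.0716 over the alternatives. The call was lost without the second (log2 -1.10, adjusted p = 0.0557) or the third untreated library (log2 -1.13, adjusted p = 0.0569). Mgl2 in MHCII+CD11c+ cells stood at 568, 500.2 and 682 CPM after IC, also below every untreated library, with a log2 change of -0.46 that did not pass the test (SE 0.22, adjusted p = 0.521). In LYVE1+CX3CR1+ cells it stood at 3.95, 4.74 and 15.4 CPM, with a log2 change of -0.94 (SE 0.36, adjusted p = 0.378). That value passed the test without the third library after IC (log2 -1.84, adjusted p = 0.0152).

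Cd209a fell after IC in both MHCII+ subsets. The MHCII+CD11c- libraries held it at 7.84, 37.7 and 20.0 CPM after IC, from only 3, 10 and 20 counts, and all 3 values lay below the untreated libraries. It was 3.20-fold lower (log2 -1.68, SE 0.40, adjusted p = 0.0364). This call was kept in only 2 of 6 fits without 1 library, and the adjusted p over all alternatives ran from 0.000346 to 0.276. It was lost without the second (adjusted p = 0.0667) or the third untreated library (adjusted p = 0.124) and without the first (adjusted p = 0.123) or the third library after IC (adjusted p = 0.0948), at a log2 change of -2.02 to -1.37 in all 6 fits.

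The MHCII+CD11c+ libraries held Cd209a at 86.4, 62.9 and 107 CPM after IC, again below every untreated library. It was 2.80-fold lower (log2 -1.48, SE 0.28, adjusted p = 0.0136), with an adjusted p from 1.84e-06 to 0.0989 over the alternatives. The call was lost without the second (log2 -1.40, adjusted p = 0.0989) or the third untreated library (log2 -1.37, adjusted p = 0.0885) and without the second library after IC (log2 -1.31, adjusted p = 0.0920). In LYVE1+CX3CR1+ cells it had 0 counts in all 3 libraries after IC, and no fold was taken.

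Il4ra stood at 431, 373 and 409 CPM in MHCII+CD11c- libraries after IC, all above the untreated libraries. The log2 change was 0.64 (SE 0.16), and its adjusted p of 0.0518 just missed the threshold. DESeq2 called it (adjusted p = 0.00126), and so did edgeR without the second library after IC (adjusted p = 0.0256), while the adjusted p over all alternatives ran to 0.376. It stood at 337, 343 and 319 CPM in LYVE1+CX3CR1+ cells after IC (log2 0.27, SE 0.15, adjusted p = 0.673), above every untreated library. The MHCII+CD11c+ libraries held it at 262, 321 and 291 CPM (log2 0.35, SE 0.16, adjusted p = 0.474), where the groups overlapped.

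Clec10a stood at 196, 158 and 147 CPM in MHCII+CD11c- libraries after IC, below every untreated library (log2 -0.80, SE 0.26, adjusted p = 0.138). Its MHCII+CD11c+ level was 361, 464 and 250.4 CPM, around the untreated level (log2 -0.10, adjusted p = 0.966). In LYVE1+CX3CR1+ cells it was at 10.7, 5.80 and 3.36 CPM (log2 -0.84, adjusted p = 0.58). None of these changes passed the test, and the ratio of Mgl2 to Clec10a per kilobase was 1.85 to 2.50 in MHCII+CD11c- libraries after IC.

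Retnla stood at 1132, 753 and 2087 CPM in MHCII+CD11c- libraries after IC, below every untreated library (log2 -1.04, SE 0.37, adjusted p = 0.176). It stood at 2738, 1898 and 2957 CPM in MHCII+CD11c+ libraries (log2 -0.65, SE 0.37, adjusted p = 0.624), which overlapped the untreated level. In LYVE1+CX3CR1+ libraries it stood at 26.5, 50.1 and 106 CPM (log2 -1.07, SE 0.40, adjusted p = 0.372). The change was negative in all 3 subsets and passed the test in none of them.

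Arg1 stood at 43.4, 104 and 132 CPM in LYVE1+CX3CR1+, at 188, 151 and 466 CPM in MHCII+CD11c- and at 106, 20.4 and 266 CPM in MHCII+CD11c+ libraries after IC. Each group overlapped its untreated group. The log2 change was -0.74 (adjusted p = 0.91), -0.999 (adjusted p = 0.637) and -2.08 (SE 0.86, adjusted p = 0.394) in the same order. In LYVE1+CX3CR1+ cells the direction rested on the first untreated library, without which the log2 change was 1.74.

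Of the chemokines, Ccl24 moved apart between subsets without passing the test. It stood at 265, 223 and 148 CPM in MHCII+CD11c+ libraries after IC, all above the untreated libraries (log2 0.85, SE 0.23, adjusted p = 0.0971). DESeq2 called this change (adjusted p = 0.0354), and over all alternatives the adjusted p ran from 0.00989 to 0.408. In LYVE1+CX3CR1+ libraries Ccl24 stood at 19.7, 36.4 and 35.1 CPM, all below the untreated libraries (log2 -0.47, SE 0.26, adjusted p = 0.65). In MHCII+CD11c- libraries it stood at 193, 275 and 151 CPM, where the groups overlapped (log2 0.15, adjusted p = 0.83).

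Ccl17 stood at 63.2, 64.5 and 53.6 CPM in MHCII+CD11c+ libraries after IC, a log2 change of -0.15 (SE 0.42, adjusted p = 0.968). Outside this subset it was seen only in the second MHCII+CD11c- library after IC, as 4 counts in the smallest library of all (15.1 CPM). Ccl22 stood at 125, 179 and 74.9 CPM in MHCII+CD11c+ libraries after IC, a log2 change of 1.01 (SE 0.45, adjusted p = 0.474), and at 0 counts in all other libraries after IC.

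**Figure D3:**
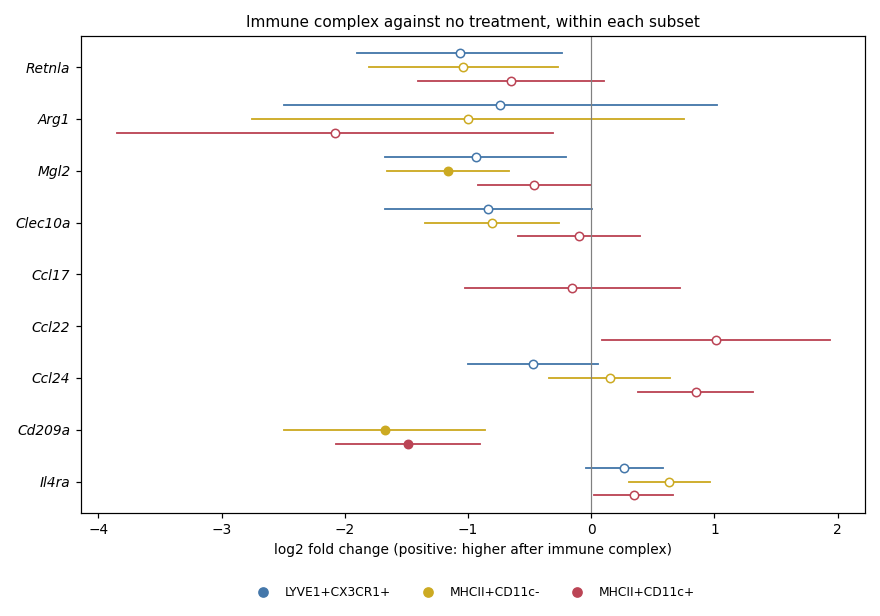
Log2 fold change of each tested member 8 h after IC against no treatment (x axis, positive is higher after IC) in each subset, with 95% intervals from n = 3 libraries a group and filled dots for changes past the threshold. Mgl2 in MHCII+CD11c- cells (-1.16) and Cd209a in both MHCII+ subsets (-1.68 and -1.48) passed; a member is left out where a group was at the floor.

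Other measures moved with IC in the same libraries. In MHCII+CD11c- cells the class II genes H2-Aa (log2 -0.84, SE 0.14, adjusted p = 0.00212), H2-Ab1 (-0.68, adjusted p = 0.0364) and H2-Eb1 (-0.95, adjusted p = 0.0188) fell, and Itgax rose (2.75, SE 0.63, adjusted p = 0.0261). In MHCII+CD11c+ cells H2-Aa did not pass the test (log2 -0.37, adjusted p = 0.321). Neutrophil markers (4 genes) summed to 350 to 728 CPM in untreated and 953 to 2190 CPM in IC libraries of MHCII+CD11c- cells, and to 17.1 to 302 CPM and 631 to 1466 CPM in those of MHCII+CD11c+ cells, where 3 of the 4 were called higher. Of 5 monocyte markers Plac8 rose in both MHCII+ subsets (log2 2.42, adjusted p = 0.0355, and 2.48, adjusted p = 0.0379) and Vcan in MHCII+CD11c+ cells (2.08, adjusted p = 0.00013). The chemokine receptor gene Ccr2, the most abundant of them, had log2 changes of -0.58 (adjusted p = 0.273) and -0.47 (adjusted p = 0.552), and the sum went from 669 to 758 CPM to 605 to 1133 CPM in MHCII+CD11c- and from 804 to 826 CPM to 659 to 804 CPM in MHCII+CD11c+ libraries. Markers of eosinophils, mast cells and basophils (11 genes) summed to 35.2 to 69.0 CPM in untreated and 136 to 319 CPM in IC libraries of MHCII+CD11c+ cells, with 0 of 8 tested markers called, and to 13.4 to 1065 CPM and 133 to 388 CPM in those of MHCII+CD11c- cells. The median total count of MHCII+CD11c- libraries was lower after IC, where 2 of the 3 libraries held 245903 and 381217 counts. Their part in the lower Mgl2 and Cd209a levels was not tested.

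Whether the response differed between subsets was tested directly. None of the 9 members was called in these tests, where 0% of all genes were called between MHCII+CD11c- and LYVE1+CX3CR1+ cells and 0.00948% between MHCII+CD11c+ and LYVE1+CX3CR1+ cells. The share was 0.00948% between the MHCII+ subsets as well. At an unadjusted p under 0.05 there were 0 members, 1 (Ccl24) and 3 (Mgl2, Ccl17 and Ccl24) in the same order, and DESeq2 called 0 in each. Of 10550 genes, 688, 474 and 642 had such a p, and DESeq2 called 11, 3 and 1 in all. The response of Mgl2 in MHCII+CD11c+ cells minus that in MHCII+CD11c- cells was 0.70 log2 units (SE 0.33, adjusted p = 0.809). That of Clec10a was 0.71 (SE 0.36, adjusted p = 0.826), and that of Cd209a was 0.19 (SE 0.49, adjusted p = 0.967). For Il4ra the response in MHCII+CD11c- cells minus that in LYVE1+CX3CR1+ cells was 0.37 (SE 0.22, adjusted p = 0.784). A fall of Mgl2 particular to MHCII+CD11c- cells was therefore not shown.

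After IC the subsets were compared again, with the same IC libraries as above. Of the 9 tested members, 5 were higher in MHCII+CD11c- than in LYVE1+CX3CR1+ cells, where 9.77% of all genes were called and 6.45% were called higher. In MHCII+CD11c+ against LYVE1+CX3CR1+ cells 7 were higher, where 19.7% of all genes were called and 11.5% were called higher. Between the MHCII+ subsets 5 were higher in MHCII+CD11c+ cells, where 2.84% of all genes were called and 1.77% were called higher. Ccl17 and Ccl22, tested only through their MHCII+CD11c+ counts, are in both counts for that subset and lend them no support. Cd209a, tested only through its MHCII+ counts, is in both counts against LYVE1+CX3CR1+ cells and lends them none. The median log2 difference was 3.25 over 8 members, 5.37 over 9 and 1.11 over 9, against 0.01, 0.04 and 0.00 over all genes. The medians for MHCII+CD11c+ cells again include Ccl17 and Ccl22, and those against LYVE1+CX3CR1+ cells include Cd209a.

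Retnla differed from LYVE1+CX3CR1+ cells by 4.45 log2 units in MHCII+CD11c- (SE 0.44, adjusted p = 6.86e-08) and by 5.37 in MHCII+CD11c+ cells (SE 0.45, adjusted p = 1.74e-09) after IC. For Mgl2 the differences were 4.92 (SE 0.31, adjusted p = 2.85e-11) and 6.13 (SE 0.31, adjusted p = 1.13e-13), and for Ccl24 they were 2.71 (SE 0.26, adjusted p = 5.09e-08) and 2.78 (SE 0.25, adjusted p = 5.78e-09). Clec10a differed by 4.66 (SE 0.35, adjusted p = 4.88e-10) and 5.77 (SE 0.33, adjusted p = 1.75e-12), and Cd209a by at least 13.9-fold (8.87-fold without the second MHCII+CD11c- library after IC) and 54.3-fold. Arg1 (log2 1.60, SE 0.88, adjusted p = 0.286 in MHCII+CD11c- cells) again passed in neither.

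Between the MHCII+ subsets after IC, Mgl2 was 1.21 log2 units higher in MHCII+CD11c+ cells (SE 0.24, adjusted p = 0.0039), and Cd209a was 2.07 higher (SE 0.39, adjusted p = 0.00276). Clec10a was 1.11 higher (SE 0.26, adjusted p = 0.0178), with an adjusted p up to 0.153 over the alternatives. Its call was lost without the first (adjusted p = 0.0503) or the second MHCII+CD11c+ library after IC (log2 0.86, adjusted p = 0.153) and without the third MHCII+CD11c- library after IC (adjusted p = 0.0901). Ccl22 was at least 17.1-fold higher (adjusted p = 0.000131). Ccl17 was higher by 4.46 log2 units against the 4 counts of a single library (SE 0.74, adjusted p = 0.00158), which DESeq2 did not call (adjusted p = 0.328). Il4ra had a log2 difference of -0.47 with no overlap between the subsets (SE 0.16, adjusted p = 0.124).

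The wider IL-4 pathway was read from gene lists around the members. A listed gene at the floor in LYVE1+CX3CR1+ cells had to be high in another group to be tested. Such genes lend no support to the counts against LYVE1+CX3CR1+ cells. Of 5 genes for ligands and receptors 2 had enough counts to be tested, Il4 had no more than 7 counts and Il13 no more than 1 count in any library. Il2rg, the common gamma chain, was higher in MHCII+CD11c+ than in LYVE1+CX3CR1+ cells (log2 1.08, SE 0.34, adjusted p = 0.0224). This call was kept in only 1 of 6 fits, that without the third MHCII+CD11c+ library, and without any other library the log2 difference was 0.99 to 1.12 and the adjusted p 0.0532 to 0.079. Il13ra1 was called in none of the untreated comparisons (log2 -0.41, -0.35 and 0.06). Stat6 itself differed by -0.10 between MHCII+CD11c- and LYVE1+CX3CR1+ cells (adjusted p = 0.807) and by -0.29 between MHCII+CD11c+ and LYVE1+CX3CR1+ cells (adjusted p = 0.272). Receptor alpha chain and STAT6 transcripts were thus called in no comparison of untreated subsets.

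Of all genes, 7.12% were called higher in MHCII+CD11c- and 12.4% in MHCII+CD11c+ cells than in LYVE1+CX3CR1+ cells. Beside these shares, 2 and 6 of 10 tested signalling genes were higher in the same order. None was lower by edgeR, by DESeq2 or at an unadjusted p under 0.05. Cish, which encodes a feedback inhibitor that STAT proteins induce, had the largest difference of this list, 2.93 log2 units (SE 0.52, adjusted p = 0.000325) and 4.58 (SE 0.48, adjusted p = 6.76e-08). It stood at 2.02, 2.51 and 3.23 CPM in LYVE1+CX3CR1+, at 23.3, 26.9 and 12.3 CPM in MHCII+CD11c- and at 96.7, 53.3 and 43.9 CPM in MHCII+CD11c+ libraries of untreated mice, with no overlap. Irs2, an adaptor of IL-4 and insulin receptors, was higher by 1.11 (SE 0.20, adjusted p = 0.000384) and 0.86 log2 units (SE 0.20, adjusted p = 0.00174).

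The other 4 genes called in MHCII+CD11c+ cells were the kinases Tyk2 (log2 1.52, adjusted p = 4.11e-05) and Jak2 (1.31, adjusted p = 0.000394), the inhibitor Socs1 (1.44, adjusted p = 0.0129) and the phosphatase Ptpn11 (1.17, adjusted p = 0.000266). Socs1 lost its call without the first LYVE1+CX3CR1+ (adjusted p = 0.0715) or the third MHCII+CD11c+ library (0.0664). Jak1, Jak3 and Ptpn6 were called in none of the 3 untreated comparisons by either tool. Between the MHCII+ subsets Cish (log2 1.64, SE 0.40, adjusted p = 0.0174) and Tyk2 (0.92, SE 0.25, adjusted p = 0.0389) were higher in MHCII+CD11c+ cells, with an adjusted p up to 0.254 and 0.195 over the alternatives. Cish lost this call without the first MHCII+CD11c+ (log2 1.23, adjusted p = 0.198) or the third MHCII+CD11c- untreated library (1.37, adjusted p = 0.119), and Tyk2 lost it without the second or the third untreated library of either subset (0.72 to 0.92, adjusted p from 0.119 to 0.195).

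After IC, 2 of the 10 signalling genes fell in MHCII+CD11c- cells, where 1.06% of all genes were called. In LYVE1+CX3CR1+ and MHCII+CD11c+ cells edgeR and DESeq2 called 0, with 2 and 4 genes at an unadjusted p under 0.05. Of 10550 genes, 919 and 1000 had such a p there. Cish had 1, 0 and 3 counts in the MHCII+CD11c- libraries after IC, at the floor, and was at least 2.82-fold lower than in untreated libraries (adjusted p = 0.022, up to 0.219 over the alternatives). Irs2 went from 380.2, 303 and 228 CPM to 136, 132 and 181 CPM there, with no overlap (log2 -0.98, SE 0.21, adjusted p = 0.0183, up to 0.175 over the alternatives). Of the 6 fits without 1 library, 2 kept the call of Cish and 3 that of Irs2. Both were lost without the first untreated library (adjusted p = 0.0523 for Cish and 0.086 for Irs2), the second untreated library (0.0777 and 0.0512) or the first IC library (0.0676 and 0.0815), and Cish also without the third IC library (0.0639). In MHCII+CD11c+ cells Cish stood at 21.6, 22.8 and 35.9 CPM after IC, below every untreated library (log2 -1.24, SE 0.38, adjusted p = 0.166), and Irs2 had a log2 change of -0.54 (SE 0.20, adjusted p = 0.282).

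**Figure D4:**
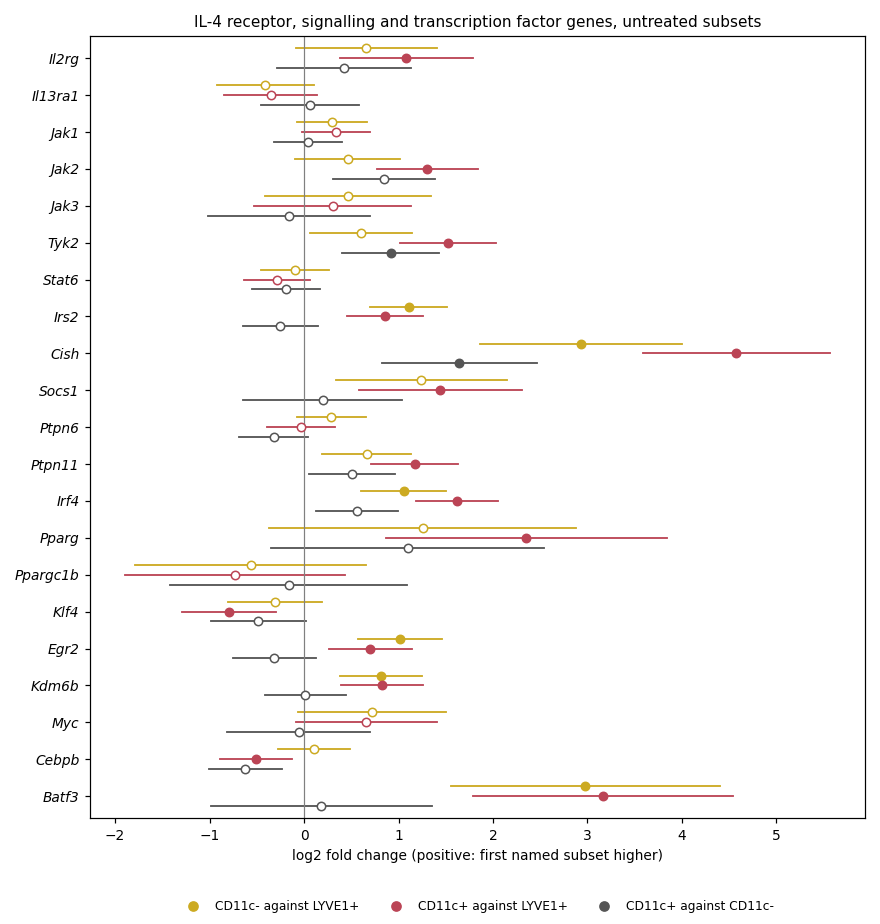
Log2 differences between untreated subsets (x axis) with 95% intervals for 21 tested genes of IL-4 receptors, signalling and transcription factors, with filled dots for differences past the threshold and n = 3 libraries a group. Cish lies at 2.93, 4.58 and 1.64 in the 3 comparisons, while Stat6, Jak1 and Jak3 pass in none.

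Among 9 transcription factors linked to alternative activation, 4 were higher in MHCII+CD11c- than in LYVE1+CX3CR1+ cells. These were Batf3 (log2 2.98, adjusted p = 0.00468), Irf4 (1.06, adjusted p = 0.00173), Egr2 (1.02, adjusted p = 0.00234) and the demethylase gene Kdm6b (0.81, adjusted p = 0.0107). Of all genes, 7.12% were called higher there and 12.4% in MHCII+CD11c+ cells, with 11.4% and 21.8% in either direction. In MHCII+CD11c+ cells the same 4 and Pparg, the lipid-sensing receptor PPAR gamma (2.35, adjusted p = 0.0187), were higher, while Klf4 (-0.79, adjusted p = 0.0179) and Cebpb (-0.51, adjusted p = 0.048) were lower. Cebpb kept its call in 1 of 6 fits without 1 library, that without the first LYVE1+CX3CR1+ library, and ran to -0.29 (adjusted p = 0.368) without the third. Pparg lost it without the first (adjusted p = 0.0542) or the third LYVE1+CX3CR1+ (0.0949) or the first MHCII+CD11c+ library (0.0804), and Klf4 without the first MHCII+CD11c+ (0.0759) or the third LYVE1+CX3CR1+ library (0.0665). In MHCII+CD11c+ cells Egr2 lost it without the first (log2 0.49, adjusted p = 0.149) or the second LYVE1+CX3CR1+ library (0.0626) and Kdm6b without the second (0.0503). In MHCII+CD11c- cells Kdm6b lost it without the first (0.0742) or the second LYVE1+CX3CR1+ library (0.0866), and Batf3 without the first MHCII+CD11c- library (log2 2.37, adjusted p = 0.0526). Batf3 and Irf4 are also used by dendritic cells. Between the MHCII+ subsets edgeR called 0 of the 9, with 2 (Irf4 and Cebpb) at an unadjusted p under 0.05 and 1 (Cebpb) called by DESeq2. There 1694 of 10550 genes had such a p, and DESeq2 called 534 genes. After IC edgeR called 0 in each subset, with 3 at an unadjusted p under 0.05 in each, and DESeq2 called 1, Kdm6b in MHCII+CD11c- cells. Of 10550 genes, 919, 1544 and 1000 had such a p in LYVE1+CX3CR1+, MHCII+CD11c- and MHCII+CD11c+ cells. DESeq2 called 276 genes in MHCII+CD11c- cells.

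The next list held 19 tested genes for other proteins that IL-4 is known to induce. Against LYVE1+CX3CR1+ cells, 7 were higher and 1 lower in MHCII+CD11c- cells, and 10 were higher and 3 lower in MHCII+CD11c+ cells. In these comparisons 11.4% and 21.8% of all genes were called, and 7.12% and 12.4% were called higher. Ear2 and Chil3 were at the floor in LYVE1+CX3CR1+ cells and lend these counts no support. Ear2, a ribonuclease of macrophages and eosinophils, was at least 86.0-fold (29.1-fold without the first MHCII+CD11c- library) and 190-fold higher. Chil3, the chitinase-like protein Ym1 that neutrophils also make, was at least 28.6-fold higher in MHCII+CD11c- cells (14.1-fold without the first library). In MHCII+CD11c+ cells Chil3 had 56, 0 and 4 counts and was called (adjusted p = 0.026), but without the first of these libraries its mean lay below the floor of LYVE1+CX3CR1+ cells (adjusted p = 0.454). That call was also lost without the first (adjusted p = 0.0692), the second (0.0709) or the third LYVE1+CX3CR1+ library (0.0823). Mmp12, a macrophage elastase (log2 4.19), Alox15, a lipoxygenase (3.55), and the inhibitory receptor gene Cd200r1 (2.72) were among those higher in MHCII+CD11c+ cells, Mmp12 by edgeR alone and not by DESeq2. Tgm2, the transglutaminase often used as an IL-4 marker, was lower in both (log2 -1.71 and -2.27, adjusted p = 0.000223 and 1.49e-06). The list was therefore not uniform in direction. Between the MHCII+ subsets Cd200r1 (log2 1.96, adjusted p = 0.0034) and Mmp12 (3.73, adjusted p = 0.0363) were higher in MHCII+CD11c+ cells. Cd200r1 kept its call in all 6 fits without 1 library, whereas Mmp12 lost it without the first (adjusted p = 0.177) or the second MHCII+CD11c+ library (0.0504) and without the second (0.142) or the third MHCII+CD11c- library (0.155).

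Higher in MHCII+CD11c- and MHCII+CD11c+ than in LYVE1+CX3CR1+ cells were 7.12% and 12.4% of all genes. Among 10 tested partners and near copies of the members, 8 and 9 were higher in the same order. None was lower by edgeR, by DESeq2 or at an unadjusted p under 0.05. Genes at the floor in LYVE1+CX3CR1+ cells, Cd274, Cd209d and Clec4b1 among them, had to be high in another group to be tested. They lend these counts no support. Relatives of Cd209a also exceeded their level in LYVE1+CX3CR1+ cells, with Cd209f at 3.67 (SE 0.29) and 4.07 (SE 0.29) and Cd209g at 3.51 (SE 0.41) and 4.04 log2 units (SE 0.40). No tested relative was called between the untreated MHCII+ subsets or after IC. However, Cd209f had an unadjusted p under 0.05 after IC in each subset, and was lower in MHCII+CD11c- cells. Cd209d had such a p between the untreated MHCII+ subsets. A difference or fall particular to Cd209a was therefore not shown. Reads of this family may be shared between its members. Cd209b, Cd209d, Cd209e, Clec4a2 and Clec4b1 were also called higher in MHCII+CD11c+ than in LYVE1+CX3CR1+ cells. Of these, Cd209e lost its call without any 1 LYVE1+CX3CR1+ library or without the third MHCII+CD11c+ library. Retnlg, a relative of Retnla that is made by neutrophils, was higher by 4.73 (SE 0.99) and 3.19 log2 units (SE 1.02, adjusted p = 0.0242). The second value was not called by DESeq2 (adjusted p = 0.0584) and lost its call without the first MHCII+CD11c+ library (log2 2.00, adjusted p = 0.253) or without the first (2.69, adjusted p = 0.0985) or the second LYVE1+CX3CR1+ library (2.90, adjusted p = 0.091), and ran from 2.00 to 4.80 over these 6 fits.

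After IC, among these effectors, Ccl6 rose in LYVE1+CX3CR1+ cells (log2 1.73, SE 0.21, adjusted p = 4.84e-05), a call kept in all 6 fits without 1 library. Tgm2 rose in MHCII+CD11c- cells (1.37, SE 0.30, adjusted p = 0.0195), a call kept only in the fit without the second IC library. Without the first, the second or the third untreated library, or without the first or the third IC library, the log2 change was 1.27 to 1.51 and the adjusted p 0.05003 to 0.0965. Of the partners and near copies, edgeR and DESeq2 called 0 after IC in each subset, with 2, 2 and 3 at an unadjusted p under 0.05. Of 10550 genes, 919, 1544 and 1000 had such a p.

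Genes whose group means followed each member most closely were found over the 6 groups, as the root mean square (RMS) difference in log2 units after each profile was centred. The likeness is a description over 6 means that share libraries. Retnla was nearest to Clec10a (0.221), Mgl2 (0.270) and H2-DMa (0.313), and Mgl2 to Retnla, Clec10a (0.318) and Ciita (0.429). Clec10a was nearest to Emb (0.217), Retnla and H2-DMb2 (0.274). These 3 members were thus near each other and near genes of the class II pathway, to which Ciita, H2-DMa and H2-DMb2 belong, and the gate itself used class II.

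Ccl17 was nearest to Klrb1b (0.610), Ccl22 (0.643) and Upb1 (0.656), and Ccl22 to Slc27a3 (0.540), Ccl17 and Klrb1b (0.792). Cd209a was nearest to Aldh1a2 (0.422), a retinoic acid-producing enzyme gene, Olfm1 (0.569) and H2-DMb2 (0.587). Ccl24 was nearest to Cyfip2 (0.198), Oas3 (0.216) and Traf3ip3 (0.242), and Arg1 to Bzrap1 (0.328), Dnase1l3 (0.389) and Slc9a7 (0.429), none of which is a member.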

How the data were processed

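RNA of the 18 sorted pools was made into stranded total RNA libraries and sequenced in pairs. The authors deposited raw counts per gene, which featureCounts made from HISAT2 alignments (mm10) of reads trimmed by Trim Galore. Their versions, the annotation and the handling of strand and multi-mapped reads are not given in the sources used here. Groups were taken from the sample titles. All 18 libraries in 6 groups were fitted with edgeR 4.0.16 (R 4.3.3, TMM, filterByExpr with a minimum count of 10 and a minimum total of 15, prior count 2). The filter kept 10550 of 17957 genes with a count. Alternatives were DESeq2 1.42.0, its size factors, a surrogate variable (sva 3.50.0), other filters, only the libraries compared, blocks of the replicate number or pool, and each library left out. For the pathway genes these, and lower bounds without 1 library, were added after seeing the data. Replicates differed beyond sampling noise (chi-square of 3.42 to 7.80 per gene). All members were named. List genes were named in full for receptors and signalling, and from the other lists only some of those called were named. The 3 nearest profiles were given for members whose means spanned over 2 log2 units. The members and lists were chosen with earlier results of these data known.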

Additional observations from a re-analysis of the deposited data

Results flagged for a closer look

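The IC response of Ccl24, the gene for the eosinophil chemokine eotaxin-2, pointed in opposite directions in 2 subsets, though neither change passed the test. All 3 LYVE1+CX3CR1+ libraries after IC lay below the untreated libraries of that subset, and all 3 MHCII+CD11c+ libraries after IC lay above theirs. Ccl24 was picked among the members for these opposite moves. The unadjusted p below comes from the same libraries and lends the difference no support. The response in MHCII+CD11c+ cells minus that in LYVE1+CX3CR1+ cells was 1.32 log2 units (SE 0.34, unadjusted p = 0.000712, edgeR's quasi-likelihood test), and 1.07 to 1.51 when 1 library was left out. With adjustment over 10550 genes the p was 0.645, so the difference did not pass the test, and the adjusted p ran from 0.0463 to 1 over the alternatives. Groups of 3 libraries were not examined for a sample far from the others.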

How the results depend on the processing

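Depth limited the MHCII+CD11c- libraries after IC most, since 3 counts were 3.004 to 11.3 CPM there. Over all alternatives, 994 values of single members kept their direction and their side of the threshold. Another 34 passed it anew, 18 no longer passed and 22 changed sign. Of the counts of called members, 159 stayed within 1.5 times the reported count, counts that stayed at 0 included, and 24 did not. Without the filter on low counts, where the prior degrees of freedom were infinite and a gene's own spread carried no weight, 2, 5 and 4 members were called after IC in LYVE1+CX3CR1+, MHCII+CD11c- and MHCII+CD11c+ cells, and 2 and 1 for the response of MHCII+CD11c+ cells against that of LYVE1+CX3CR1+ and of MHCII+CD11c- cells. With at least 10 counts in every library only 4 members were tested, and 1 was called after IC in MHCII+CD11c- cells, 2 in each MHCII+ subset against LYVE1+CX3CR1+ cells with and without IC, and 0 between the MHCII+ subsets. With a surrogate variable 0 members were called after IC in MHCII+CD11c- cells. With only the libraries compared 1 and 2 were called after IC in MHCII+CD11c- and MHCII+CD11c+ cells, and DESeq2 called 2 in the latter; the cause was not tested. Without 1 library, 0 to 1, 0 to 3 and 0 to 1 members were called after IC in the 3 subsets. DESeq2 called 152 genes in all after IC in MHCII+CD11c+ cells. Under the other settings the share of all genes called was not computed, so these counts of members cannot be set against it.

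The following values changed sign. Arg1 between untreated MHCII+ subsets was -0.61 with the surrogate variable, -0.0261 with at least 10 counts, -0.0285 with only the libraries compared, -0.0105 with DESeq2, -0.00887 with its size factors, and -1.54 to 0.74 without 1 library. Without 1 library, Arg1 ran from -1.28 to 1.74 after IC in LYVE1+CX3CR1+ cells and from -0.73 to 1.004 between MHCII+CD11c+ and LYVE1+CX3CR1+ cells after IC. Ccl24 after IC in MHCII+CD11c- cells was -0.21 with the surrogate variable and -0.0925 to 0.34 without 1 library, and between MHCII+ subsets after IC -0.14 to 0.32. After IC in MHCII+CD11c+ cells Ccl17 ran from -0.23 to 0.0203 and Clec10a from -0.36 to 0.0917, and the difference in the Cd209a response between MHCII+ subsets from -0.13 to 0.54.

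Whether same-numbered libraries of a treatment shared mice is not given in the labels. Their deviations correlated above 0 in 17 and above 0.1 in 1 of 18 pairs (-0.05 to 0.13), and above 0 in 17 of 27 across treatments. A library correlated best with its own number in 28 of 36 cases. Each case was a choice among 3 libraries, so this was more often than random choice would give. The main fit nevertheless did not use the numbers as pairs, because the labels do not give the pairing, and results that a pairing changes are given here. With the replicate number as a block, Arg1 was 0.0141 after IC in LYVE1+CX3CR1+ cells and -0.11 between untreated MHCII+ subsets, or -0.49 with the pool of mice as block, and Il4ra was called after IC in MHCII+CD11c- cells (adjusted p = 0.0465). The pool of mice as block called Arg1 in untreated MHCII+CD11c- (2.70, adjusted p = 0.000269) and MHCII+CD11c+ against LYVE1+CX3CR1+ cells (2.21, adjusted p = 0.000498) and Retnla between the MHCII+ subsets after IC (1.05, adjusted p = 0.0054). Untreated Arg1 was higher in each MHCII+ library than in the LYVE1+CX3CR1+ library of its number, in 3 of 3 numbers for both subsets.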

Other observations

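Genes of eosinophils, to which Ccl24 is a chemokine, were uneven between libraries. Prg2, the major basic protein, had 584 counts (679 CPM) and Epx, the eosinophil peroxidase, 276 counts (321 CPM) in the first untreated MHCII+CD11c- library, against no more than 5 counts of Prg2 in the other two. In MHCII+CD11c+ libraries after IC Prg2 stood at 81.8, 0 and 135 CPM, and in LYVE1+CX3CR1+ libraries it had 0 counts throughout. The 11 markers of eosinophils, mast cells and basophils summed to 13.4 to 1065 CPM in untreated MHCII+CD11c- libraries.

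Arg1 and Retnla were highest in the first library of every subset without treatment and in the third library of every subset after IC. Of all 10550 genes, 197 (1.87%) were highest in the same-numbered library of all 3 subsets under both treatments. The gene whose deviations within groups were nearest to those of Arg1, a search made after its values were seen, was Slc7a2, which encodes a transporter of the arginase substrate arginine. The RMS difference was 0.573 log2 units, where Arg1's own deviations had an RMS of 1.26. Next to Arg1 came AF529169 (0.820) and Pcolce2 (0.845). For Retnla, whose own RMS was 0.530, the nearest were Gba2 (0.323), Idi1 (0.346) and Cnot3 (0.350). Slc7a2 stood at 885, 182 and 219.7 CPM in LYVE1+CX3CR1+, 1263, 490.2 and 777 CPM in MHCII+CD11c- and 1122, 169 and 239 CPM in MHCII+CD11c+ libraries of untreated mice. After IC it stood at 138, 281 and 472 CPM, 384, 252 and 1234 CPM and 407, 35.4 and 1055 CPM in the same order. The third library was the highest in all 3 subsets. Slc7a2 was picked for its likeness to Arg1 in these libraries, so a shared highest library is no further observation.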
